A study of Homo sapiens with 16 samples.

Results

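The replication-dependent histone genes were taken as all protein-coding genes of the GRCh38 annotation whose symbol marks a linker histone H1-1 to H1-6 or a numbered member of the H2AC, H2BC, H3C and H4C series. This gave 70 genes of 19970 protein-coding genes on chromosomes 1 to 22 and X. Of these, 6 encode H1, 17 H2A, 19 H2B, 13 H3 and 15 H4. On chromosome 6, 55 members fall in the large cluster at 6p22, between 25726063 and 27893891. On chromosome 1, 11 lie in the small cluster at 1q21, between 149782689 and 149887965. The other members are the pair H2AC25 and H2BC26 at 1q42, H4C16 at 12p12 and H2BC12L at 21q22.

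ATAC-seq, which marks DNA that a transposase can reach, was done on wild-type MDA-MB-231, a human breast adenocarcinoma line with mesenchymal features. Ancestral cells and cells selected for 75 days by serial replating of 20000 cells were each placed on collagen-coated polyacrylamide gel, either soft (1 kPa) or stiff (308 kPa). The 16 samples form 4 groups of 4, with both populations on both gels. The labels do not settle whether the selected cells on stiff gel had been selected on soft or on stiff gel. The stated question was whether selected cells on soft gel differ from ancestral cells on soft gel. All groups share the parental line, so the selected population is a single line's outcome, and the labels do not say whether the 4 samples of a group were separate cultures. The deposited tables hold 1 peak list per group, so no spread between samples could be had and no difference below carries a p-value. Intervals given below are exact 95% intervals and cover counting error only.

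Replication histone genes supply the histones that package newly copied DNA. They are short, mostly lack introns, are transcribed in S phase and give mRNAs that end in a stem-loop in place of a poly(A) tail. NPAT gathers at the clusters in bodies within the nucleus, where CDK2 with cyclin E activates it, and SLBP binds the stem-loop. H2A and H2B genes are often arranged head to head around a shared promoter. H2A, H2B, H3 and H4 form the nucleosome core, and H1 binds the linker DNA.

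The 4 lists held 109578, 116043, 129755 and 122591 peaks, for ancestral cells on soft and on stiff gel and then selected cells on soft and on stiff gel, an order kept for every series of 4 values below. The pileup, the authors' count of fragments stacked at the summit of a peak, had a list median of 111, 132, 51 and 56. A gene's level is the highest pileup of any peak within 1 kb of the gene, divided by its list's median. Peaks are numbered by position, and 1107, 1173, 1311 and 1240 numbers are skipped, in stretches no shorter than 6392 bp. The widest listed peak measured 5650, 5946, 8443 and 7950 bp. A gene next to no listed peak but at a stretch with a skipped number was called undetermined. VIM, CD44 and AXL, marks of this line, had peaks in all 4 lists, FOSL1 was undetermined in all 4, and the luminal genes ESR1, PGR, GATA3, FOXA1, EPCAM, KRT8 and CDH1 also had peaks in all 4, so peak presence does not separate the line's markers from luminal ones.

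The promoters below set, for each of 4 histone types, the 6p22 gene of highest level whose start lay under a peak in all lists beside the first gene by position in the longest stretch without any peak. They are shown because the letters known from histone promoters occur on both sides of that divide. The level of H3C3 comes from a peak shared with H2BC3. In each list its summit lies at -1671 bp from the H3C3 start and 0 bp from the H2BC3 start. Each sequence is the 250 bases before the gene start from RefSeq, build GRCh38.p14, read 5′ to 3′ on the gene's strand. Capitals mark matches, on either strand, to 6 motifs. The TATA box is TATAAA and the CCAAT box is CCAAT. The octamer bound by POU2F1 is ATTTGCAT. The core of the site of HINFP, an activator of H4 genes, is GGTCCG. The AC box of H1 genes is AAACACA. The E2F site searched is TTTGGCGC. Overlapping matches run together. H1-2 (chr6:26056471-26056720, minus strand) and H1-3 (chr6:26234988-26235237, minus strand) come first, then H2BC11 (chr6:27132796-27133045, minus strand) and H2BC8 (chr6:26216689-26216938, minus strand). H3C3 (chr6:26045134-26045383, plus strand) and H3C6 (chr6:26223928-26224177, plus strand) follow, with H4C8 (chr6:26285535-26285784, minus strand) and H4C6 (chr6:26240143-26240392, plus strand) last.
H1-2: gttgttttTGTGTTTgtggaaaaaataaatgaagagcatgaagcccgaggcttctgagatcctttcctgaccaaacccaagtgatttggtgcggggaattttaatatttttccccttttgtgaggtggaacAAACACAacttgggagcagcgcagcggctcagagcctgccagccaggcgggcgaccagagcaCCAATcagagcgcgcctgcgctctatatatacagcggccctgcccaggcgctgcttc
H1-3: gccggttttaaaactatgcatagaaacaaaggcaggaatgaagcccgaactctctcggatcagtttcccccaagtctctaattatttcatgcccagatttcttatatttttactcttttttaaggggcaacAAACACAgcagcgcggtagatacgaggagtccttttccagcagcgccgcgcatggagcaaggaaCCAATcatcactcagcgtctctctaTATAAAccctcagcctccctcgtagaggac
H2BC11: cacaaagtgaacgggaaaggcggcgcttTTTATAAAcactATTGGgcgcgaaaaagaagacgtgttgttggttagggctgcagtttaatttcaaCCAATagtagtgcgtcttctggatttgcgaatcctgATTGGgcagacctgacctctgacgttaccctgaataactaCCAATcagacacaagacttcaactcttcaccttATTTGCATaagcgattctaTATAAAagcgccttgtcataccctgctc
H2BC8: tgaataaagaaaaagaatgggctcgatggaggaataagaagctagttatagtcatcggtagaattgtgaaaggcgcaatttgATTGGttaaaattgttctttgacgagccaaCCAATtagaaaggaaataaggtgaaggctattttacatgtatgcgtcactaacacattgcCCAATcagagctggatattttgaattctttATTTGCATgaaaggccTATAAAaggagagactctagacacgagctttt
H3C3: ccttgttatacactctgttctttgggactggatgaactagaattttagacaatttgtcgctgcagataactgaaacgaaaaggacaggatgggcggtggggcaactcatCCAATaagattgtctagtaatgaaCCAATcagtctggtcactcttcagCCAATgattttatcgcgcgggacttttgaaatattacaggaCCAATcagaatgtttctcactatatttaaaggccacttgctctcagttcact
H3C6: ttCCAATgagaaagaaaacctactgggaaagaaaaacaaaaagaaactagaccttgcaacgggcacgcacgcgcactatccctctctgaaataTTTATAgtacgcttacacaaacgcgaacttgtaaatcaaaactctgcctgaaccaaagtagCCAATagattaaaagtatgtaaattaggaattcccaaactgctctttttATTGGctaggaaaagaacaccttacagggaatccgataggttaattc
H4C8: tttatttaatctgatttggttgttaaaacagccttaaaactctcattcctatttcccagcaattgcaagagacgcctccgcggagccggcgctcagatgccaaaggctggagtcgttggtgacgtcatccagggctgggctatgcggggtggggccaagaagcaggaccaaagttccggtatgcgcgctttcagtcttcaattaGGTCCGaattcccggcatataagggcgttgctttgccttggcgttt
H4C6: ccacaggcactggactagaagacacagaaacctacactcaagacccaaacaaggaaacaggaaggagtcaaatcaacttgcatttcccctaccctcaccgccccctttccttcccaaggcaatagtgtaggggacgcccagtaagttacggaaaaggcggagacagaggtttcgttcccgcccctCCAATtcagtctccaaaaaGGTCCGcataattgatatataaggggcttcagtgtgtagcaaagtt

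The H1-2 and H1-3 promoters both held the AC box and a CCAAT match, those of H2BC11 and H2BC8 both held the octamer, and those of H4C8 and H4C6 both held the HINFP core. Both H3C3 and H3C6 held CCAAT. The pairs also differed, with TATAAA in H1-3 and H3C6 but not in H1-2 or H3C3, and CCAAT in H4C6 but not in H4C8. Over the 64 members with a promoter in the table, TATAAA was found in 65.6% (9.36% of all 15812 promoters of the same length), CCAAT in 84.4% (34.4%) and ATTTGCAT in 40.6% (1.67%). GGTCCG was found in 23.4% of members against 12.1% of all promoters. AAACACA was found in 9.38% against 3.73%, and TTTGGCGC in 0 members against 0.715%. The letters sorted by histone type. The AC box was in all 6 H1 promoters and no other member's. The HINFP core was in 12 of 13 H4 promoters, the octamer in 14 of 18 H2B and 11 of 16 H2A promoters, and CCAAT in every H1, H2A, H2B and H3 promoter but 3 of 13 H4 promoters. Members H4C1, H4C3, H2AC12, H3C11, H3C12 and H2BC12L had no promoter row.

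The same letters were found in members with and without peaks. Of 33 members with a peak in all 4 lists and 15 with none in any list and no skipped number there, CCAAT was found in 75.8% and 86.7%, the octamer in 42.4% and 46.7%, TATAAA in 72.7% and 53.3%, and the HINFP core in 30.3% and 20.0%. Some members share their upstream letters, which bears on where reads can be placed. The 250 bases before H4C14 and H4C15 were identical. H3C14 matched H3C15 over 246 aligned bases without a mismatch, and H2AC18 matched H2AC19 over 249. H4C11 and H4C12 differed at 5 of 250. How reads with several matches were placed is not given in the sources used here, so the levels of these pairs at 1q21 and 6p22 are uncertain as to which copy they belong to. H2AC7 and H3C4 share an annotated start, so their windows are the same DNA.

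Within 1 kb, 37, 37, 46 and 48 of the 70 members had a peak in the 4 lists, or 52.9%, 52.9%, 65.7% and 68.6%. Over all protein-coding genes the shares were 83.2%, 83.8%, 84.2% and 84.1%, so members had a listed peak less often than genes as a whole in each list. Another 15, 15, 2 and 0 members were undetermined, and 18, 18, 22 and 22 had no peak. The shares above are not matched for gene length. Most members are short, so a gene with 1 kb on each side spans less DNA for them than for a long gene. At the gene start, the ancestral lists had a peak at 45.3% and 46.9% of 64 members, against 64.3% and 65.4% of 15807 genes. Undetermined members without a listed peak at the start count there as without one, so the ancestral shares of members are lower bounds. In the selected stiff list, with 0 undetermined members, the highest peak covered the start at 39 of the 64 members. The matching share of all genes is not given here for the selected lists, so the comparison at the start covers ancestral cells only. In the selected stiff list, the only one with every member determined, peaks lay at 2 of 6 H1 genes, 14 of 17 H2A genes, 14 of 19 H2B genes, 8 of 13 H3 genes and 10 of 15 H4 genes. The shares by type differed, and whether type or position goes with the presence of a peak was not tested. The map of levels by member and list shows runs of neighbours of several types with the same status.

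**Figure D1:**
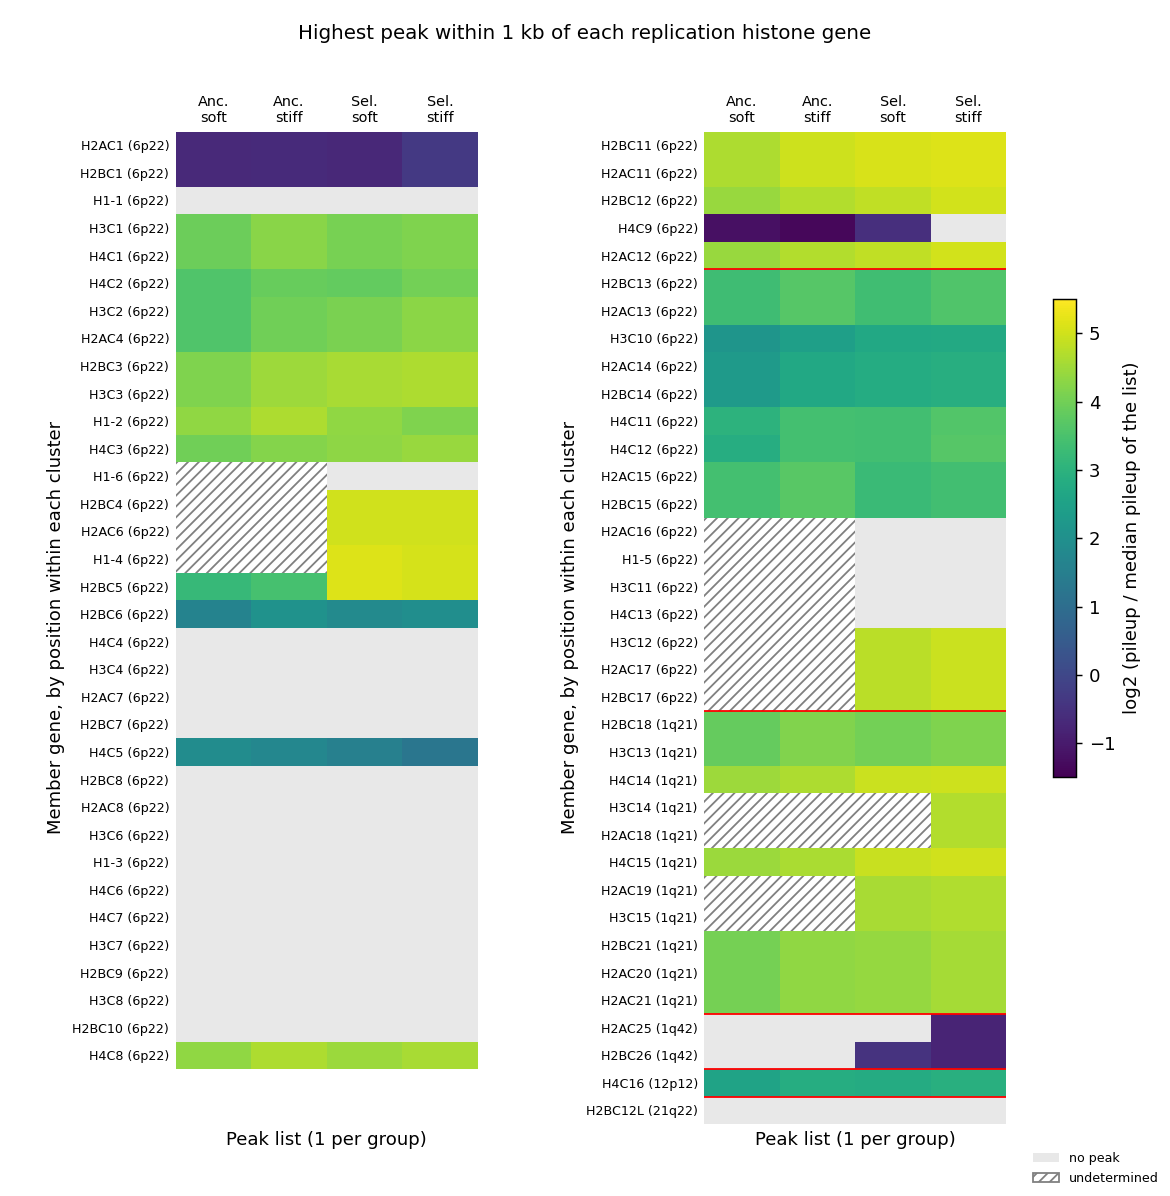
Each row is a member, by position within its cluster, and each column is 1 of the 4 peak lists. Colour gives the log2 of the highest pileup within 1 kb over the list median, light grey marks no peak and hatching marks an undetermined gene. Red lines part the groups of neighbouring members. Grey runs are in the same rows of all 4 columns from H4C4 to H2BC10, broken at H4C5, and the hatched cells fall mostly in the 2 ancestral columns.

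A peak in all 4 lists was found at 36 members (79% of all genes had one), and 34 of these lay at no skipped number. No peak in any list was found at 21 members against 11.8% of all genes, again without a match for gene length. For 16 of the 21, no list had a skipped number there (11% of all genes). Of these 16, 14 are neighbours at 6p22. H2BC8, H2AC8, H3C6, H1-3, H4C6, H4C7, H3C7, H2BC9, H3C8 and H2BC10, genes of all 5 histone types, lie in a stretch of 76.0 kb, chr6:26206713-26282725, that holds no peak of any list. H4C4, H3C4, H2AC7 and H2BC7 lie in the stretch before it, chr6:26184397-26205723, which measures 21.3 kb and also holds no peak. Between both stretches stands 1 modest peak in every list, which lies past the end of H4C5 and is that gene's only peak.

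Stretches without peaks are common, but few are dense in genes. Of 163948 stretches between merged peaks, with a median of 3412 bp, 6415 (3.91%) are as long as or longer than this one. With itself counted, 10 hold as many whole protein-coding genes, and no other holds as many in the same length or less. Within 100 kb, 21 stretches hold at least 4 whole genes, and 3 of the 21 are made up of members. Among the others are keratin-associated protein, late cornified envelope, defensin, olfactory receptor and protamine genes. Stretches were taken between listed peaks, so those with a skipped number count as without peaks in all these totals. The stretch with FOSL1, among the 21, has a skipped number in all 4 lists, while the stretches of 76.0 and 21.3 kb have none. The third stretch with members, chr6:27840384-27878213, measures 37.8 kb and holds H2AC16, H1-5, H3C11 and H4C13. No peak was listed there in the selected lists without any skipped number, while the 2 ancestral lists skip a number there, so those 4 genes are undetermined in ancestral cells.

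H1-1, a linker histone of few tissues, and H2BC12L also had no peak in any list and no skipped number. H1-6, the testis linker histone, had no peak in either selected list and was undetermined in both ancestral lists. The other testis members, H2AC1 and H2BC1, share 1 weak peak, which did not cover the H2AC1 start in any list. Its pileup was 69, 83, 31 and 44, and the level of 0.622, 0.629, 0.608 and 0.786 was below the median peak of each list.

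Members with a peak had large ones. The median level over members was 12.0, 15.7, 18.3 and 20.5, against 6.99, 8.45, 6.37 and 7.59 over all protein-coding genes with a peak. The median member stood at percentile 73.4, 78.6, 87.8 and 87.8 of all such genes. Of members with a peak, 18, 21, 30 and 32 stood above percentile 75. These medians rest on the members that have a listed peak, which differ between lists since the undetermined members of ancestral cells have some of the highest levels in selected cells.

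The 1q21 cluster had high and even levels. Its median was 16.5, 20.1, 21 and 25.6, with a lowest member of 14.3, 18.2, 16.1 and 17.8 and a highest of 22.1, 24.7, 30.8 and 32.0. Its members with a peak numbered 7, 7, 9 and 11 of 11, and the rest were undetermined, so no member of 1q21 was without a peak at a determined position. At 6p22, 29, 29, 35 and 34 of 55 members had a peak, with a median of 10.7, 12.8, 17.0 and 18.7. The 6p22 members form 3 groups of neighbours. The first group, of 34 genes, had a median of 12.0, 15.7, 18.3 and 19.6. The second, of 5 genes around H2BC11, had the highest medians at 21.4, 25.8, 28.3 and 33.7. The third, of 16 genes, had the lowest at 8.05, 10.7, 10.3 and 11.9. In every list the median was highest in the second group, then at 1q21, then in the first group, and lowest in the third.

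**Figure D2:**
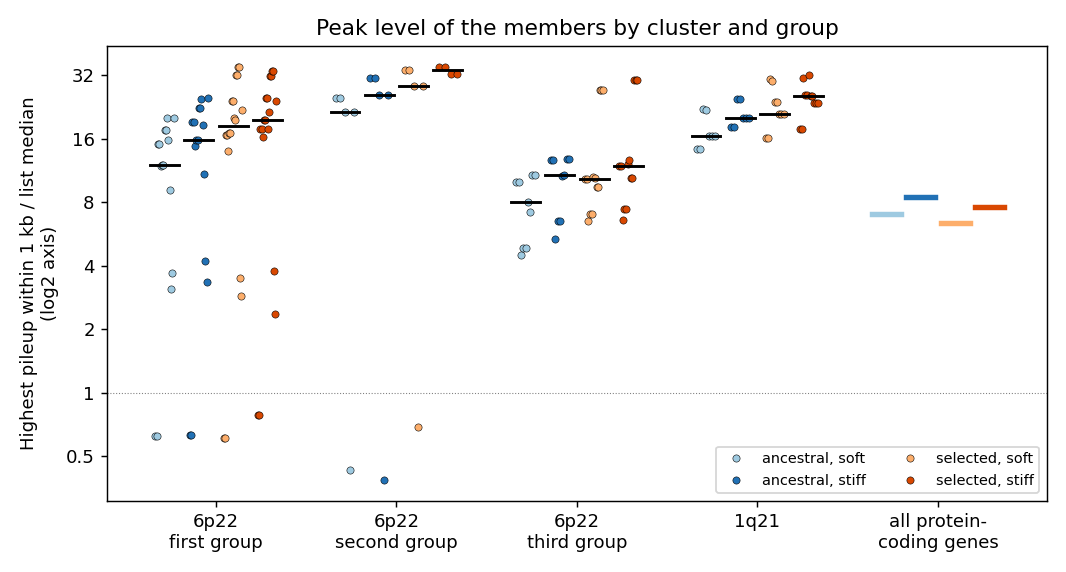
Each point is a member with a peak, its height the highest pileup within 1 kb over the list median on a log2 axis, and colours are the 4 lists. Black bars are medians of the members, and the bars at the right are medians of all protein-coding genes with a peak. The median of the third 6p22 group, 8.05 to 11.9, is the lowest of the member groups and above that of all genes in each list, and 1q21 sits higher at 16.5 to 25.6.

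Among members with a peak in every list, H2BC11 and H2AC11 had the highest median level over the 4 lists. They are divergent and share a single peak of 3830, 3853, 3782 and 3787 bp. Its pileup was 2761, 4095, 1722 and 1963, and its level 24.9, 31.0, 33.8 and 35.1. H4C14 and H4C15 at 1q21 followed, with 22.1, 24.7, 30.8 and 31.0 for H4C14. H2BC12 and H2AC12, in the same 6p22 group as H2BC11, shared a peak with a level of 21.4, 25.8, 28.3 and 32.4. Among H1 genes, H1-2 was the only one with a peak in all lists, at 20.1, 24.7, 20.1 and 17.7, with the summit past the gene end. H1-4, undetermined in ancestral cells, had 35.1 and 33.4 in the selected lists, from a peak shared with H2BC5 whose summit lay past the H1-4 end.

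Among members with a peak in all 4 lists, the lowest levels after H2AC1 and H2BC1 were those of H4C5, H2BC6 and H3C10. Below 1 were also the levels of H4C9 (0.432, 0.386 and 0.686 in the lists with a peak), H2BC26 (0.725 and 0.571 in selected cells) and H2AC25 (0.571 in selected cells on stiff gel). H4C5 had 3.69, 3.34, 2.88 and 2.36 from the peak past its end. H2BC6, whose own start lay under its peak, had 3.11, 4.23, 3.51 and 3.79. H3C10 had 4.48, 5.36, 6.53 and 6.55. H4C16 at 12p12, an H4 gene outside the clusters, had 5.85, 7.11, 6.90 and 7.52, close to the median of all genes.

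Member peaks were wide and often held more than 1 gene. The median width of the highest peak was 2946, 2967, 3802.5 and 3612.5 bp, against 1674, 1821, 1641 and 1657 bp over all genes. Over 3 kb were 48.6%, 48.6%, 60.9% and 62.5% of them, against 11.9%, 15.5%, 17.4% and 16.1%. The 37, 37, 46 and 48 members with a peak had 25, 25, 29 and 29 distinct highest peaks, and 23, 23, 32 and 36 members shared theirs with another member, so members are not independent of each other. Where the start was known, the highest peak covered it in 29 of 34, 30 of 34, 37 of 42 and 39 of 44 members, or 85.3% to 88.6%, against 60.4%, 61.4%, 59.2% and 61.7% of all genes. The whole gene lay under the peak in 73.5%, 79.4%, 73.8% and 75.0% of members and in 0.908%, 1.07%, 1.73% and 1.58% of all genes. Both contrasts are tied to gene length, for which no match was made. Only a gene shorter than its peak can lie wholly under it. The highest peak of a long gene can lie far from the start, and the upper quartile of that distance over all genes was 7865, 7485, 7459 and 6416 bp.

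Of the H2A and H2B genes, 11 pairs were divergent, with starts 194 to 248 bp apart (median 236). Apart from H2AC25 with H2BC26, both genes of a pair had the same status in each list. In all, 6 pairs had a peak in all 4 lists, among them H2AC11 with H2BC11, and 2 pairs, H2AC7 with H2BC7 and H2AC8 with H2BC8, had none. The profile around gene starts shows the breadth of these peaks.

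**Figure D3:**
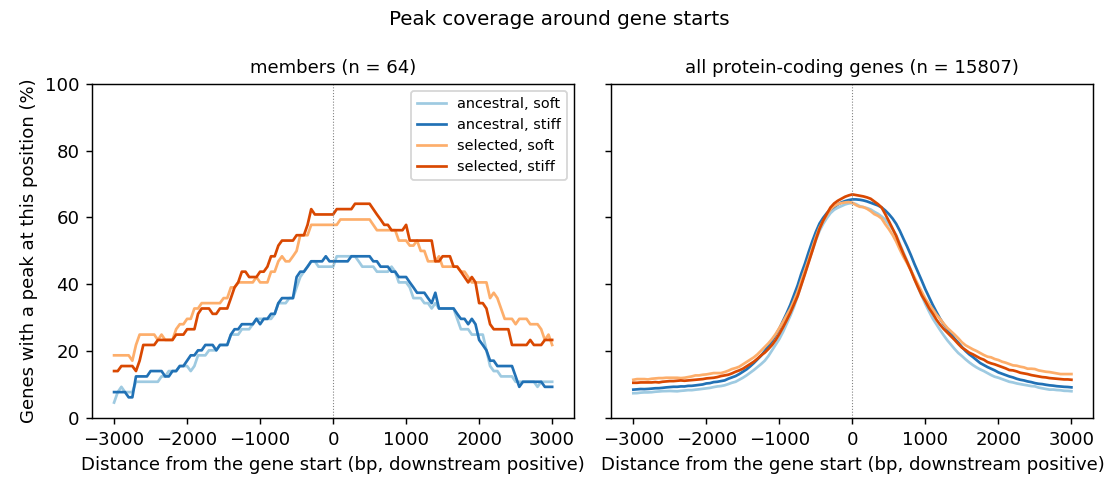
The share of genes, in percent, with a listed peak at each distance in bp from the gene start, downstream positive, for the 64 members (left) and 15807 protein-coding genes (right) with a known start, by list. At the start the members' share is 45.3%, 46.9%, 57.8% and 60.9%, and 1500 bp downstream it is still 32.8%, 32.8%, 45.3% and 48.4%. In the 2 ancestral lists the share of all genes is higher at the start, 64.3% and 65.4%, and lower 1500 bp downstream, 18.6% and 21.3%. Undetermined members, 15 in each ancestral list and 2 and 0 in the selected ones, count as without a peak here unless a listed peak reaches that position.

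On soft gel, selected cells had a peak at 9 members where ancestral cells had none listed, and the reverse held for 0 members (3.86% and 2.82% of all genes). Of the 9, 8 were undetermined in ancestral cells, namely H2AC19, H3C15, H2BC4, H2AC6, H1-4, H3C12, H2AC17 and H2BC17. Their peaks in selected cells are among the widest, such as 7419 bp at H2BC4 and H2AC6, 6284 bp at H1-4 and 6965 bp at H3C12, while the widest peak of the ancestral soft list measured 5650 bp. The single determined difference was H2BC26, with a pileup of 37 in selected cells.

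Among the 37 members with a peak in both soft lists, the level was higher in selected cells. The median log2 ratio of selected to ancestral was 0.35 (quartiles 0.15 and 0.47), against 0.02 over 16049 protein-coding genes. The members' median thus stood 0.33 above that of all genes, and 31 of 37 members were above it (50% of all genes are, by construction). The interval of the ratio lay above the all-gene median for 27 members (27.9% of all genes) and below it for 3 (28.4%). High pileups give narrow intervals, and members have higher pileups than most genes. Relative to that median 1q21 stood at 0.33 (7 members), and the 3 groups at 6p22 at 0.16, 0.42 and 0.36. By type, H2A, H2B, H3 and H4 stood at 0.33, 0.33, 0.43 and 0.31, and the lone H1 gene at -0.01. The size of the difference was small beside the 1.5-fold limit: 2 members passed it upward (8.67% of all genes) and 0 downward (6.92%). These counts turn with the scale too, with 1 upward and 16 downward by the authors' fold enrichment, and 8 upward on the median of genes with a peak in all 4 lists.

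The sign of the median ratio also depends on the scale. With the authors' fold enrichment, which divides by a genome-wide background of 16.3, 20.2, 13.5 and 12.6, the median over members was -0.51 on soft gel and that over all genes -0.85. On the median of genes with a peak in all 4 lists it was 0.46 and 0.12. Each scale divides all genes of a list alike, so the members' distance of 0.33 from the all-gene median is the same by construction and says nothing of its stability. Regions of the 6p22 span over 1 kb from any member gave a median log2 ratio of 0.34 (101 regions in both lists), against 0.15 over all regions, and the other genes inside the spans gave 0.04 (21 genes). Genes in the upper quartile of pileup in the ancestral list gave 0.05.

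The members past 1.5-fold were H2BC5 and H4C9. H2BC5 had 9.18, 10.9, 35.1 and 33.4, with a log2 ratio of 1.93 (1.82 to 2.05) on soft gel, but its start holds a skipped number in ancestral cells and the ancestral values come from another peak, 13882 bp downstream in the soft list. H4C9 had a weak peak of pileup 48, 51 and 35 in the first 3 lists, a ratio of 0.67 (-0.01 to 1.32) on soft gel and no peak in selected cells on stiff gel. Next came H3C10 at 0.54 (0.34 to 0.75), H2AC14 and H2BC14, which share a peak, at 0.54 (0.34 to 0.74), and H4C12 at 0.53 (0.37 to 0.69). At the other end, H4C5 had -0.36 (-0.64 to -0.08), H2AC15 and H2BC15 had -0.17 (-0.33 to -0.02), H2AC1 and H2BC1 had -0.03 (-0.69 to 0.60) and H1-2 had 0.00 (-0.10 to 0.11).

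**Figure D4:**
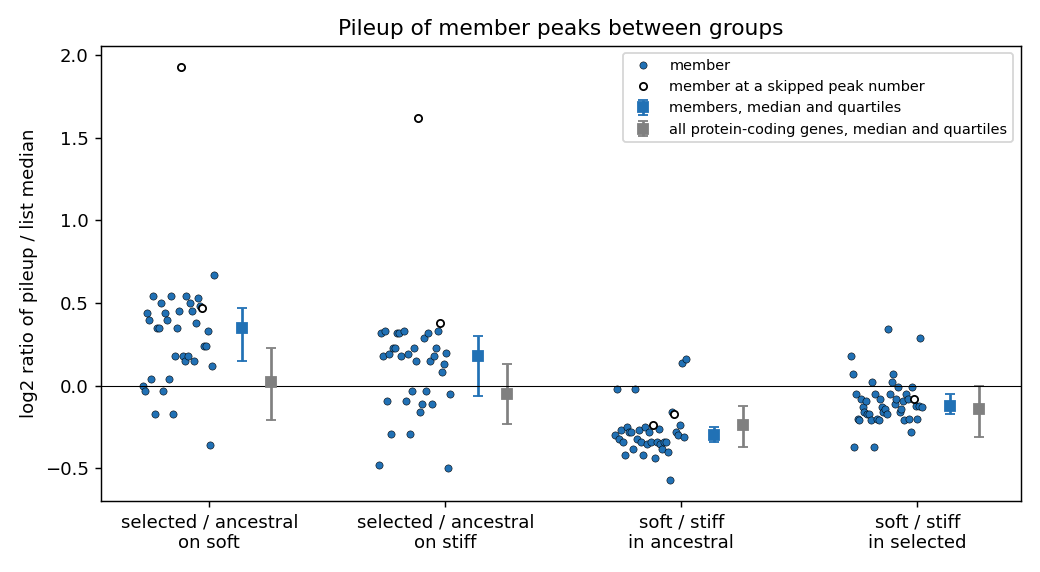
Log2 ratio of a member's level between 2 lists, for the 4 comparisons. Filled points are members, open points are members at a skipped peak number, and squares with bars are the median and quartiles over members (blue) and over all protein-coding genes (grey). The blue square stands above the grey one by 0.33 and 0.22 in the comparisons of selected with ancestral cells, and within 0.07 of it in those of soft with stiff gel.

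On stiff gel, 12 members had a peak that was listed for selected cells alone, and 1 for ancestral cells alone (2.94% and 2.66% of all genes). Of the 12, 10 were undetermined in ancestral cells, the 8 named above with H3C14 and H2AC18. The determined ones were H2AC25 and H2BC26, which share a peak of pileup 32, and H4C9 in the other direction. Among 36 members with a peak in both lists, the median log2 ratio of selected to ancestral was 0.18 (quartiles -0.06 and 0.30), against -0.05 over 16204 genes, a distance of 0.22. Above the all-gene median were 26 of 36 members. The interval lay above it for 21 (27.2% of genes) and below it for 4 (26.1%). The 1.5-fold limit was passed upward by H2BC5 alone (6.33% of all genes) and downward by 0 members (6.34%). With fold enrichment the median was -0.42 and 12 members were past 1.5-fold downward, so the direction turns with the scale.

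H4C15 had the highest ratio on stiff gel after H2BC5, 0.38 (0.30 to 0.46), with H4C14, H2BC12 and H2AC12 at 0.33. The lowest were H4C5 at -0.50 (-0.79 to -0.22), H1-2 at -0.48 (-0.58 to -0.37), H2AC15 and H2BC15 at -0.29 (-0.43 to -0.16) and H2BC6 at -0.16 (-0.39 to 0.07). H4C5 and the H2AC15 and H2BC15 pair thus stood at the low end on both gels. H1-2 did so on stiff gel, where its level was 24.7 in ancestral and 17.7 in selected cells, and had 20.1 in both on soft gel. Its peak covered the start in every list. The summit, where the pileup is counted, lay 1253, 1070, 1127 and 1069 bp downstream of the start. That is past the end of this gene of 731 bp. The comparison on stiff gel shares no list with that on soft gel, but their difference was not tested.

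Between soft and stiff gel in ancestral cells, every member had the same status, with a peak in only 1 of the lists at 0 members in either direction (1.14% and 1.76% of all genes). The median log2 ratio of soft to stiff was -0.30 over 37 members and -0.24 over 16385 genes, a distance of -0.07. Only 6 of 37 members stood above the all-gene median. The interval lay above it for 2 (21.7% of genes) and below it for 15 (22.5%). Past 1.5-fold were 0 members upward (0.983% of genes) and 0 downward (8.39%). H4C12 had the lowest ratio, -0.57 (-0.70 to -0.45), followed by H2BC6 at -0.44 and H2AC14 and H2BC14 at -0.42. The highest were the weak peaks of H4C9 at 0.16 (-0.44 to 0.76) and H2AC1 and H2BC1 at -0.02 (-0.50 to 0.46), and H4C5 at 0.14 (-0.05 to 0.34).

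In selected cells, 1 member had a peak on soft gel only, H4C9, and 3 on stiff gel only, H2AC25 and the undetermined H3C14 and H2AC18 (1.90% and 1.76% of all genes). The median log2 ratio of soft to stiff was -0.12 over 45 members and -0.14 over 16440 genes, a distance of 0.02, and 26 of 45 members stood above the all-gene median. Past 1.5-fold were 0 members upward (1.73% of genes) and 0 downward (9.39%). The interval spanned the all-gene median for 38 members, lay above it for 7 (13% of genes) and below it for 0 (21.7%). H2BC26 had the highest ratio, 0.34 (-0.38 to 1.07), between a peak past its end on soft gel and another before its start on stiff gel. H4C5 had 0.29 (-0.06 to 0.64), H1-2 0.18 (0.06 to 0.31) and H1-4 and H2BC5 0.07 (-0.02 to 0.17). The lowest were H2AC1 and H2BC1 at -0.37 (-1.08 to 0.33) and H4C12 at -0.28 (-0.44 to -0.11).

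The regulators and processing factors of histone genes, a list of 17, all had a peak in all 4 lists. NPAT, the coactivator of the clusters, had a level of 37.2, 40.9, 42.0 and 45.0. HINFP had 24.4, 26.7, 28.6 and 31.0. SLBP had 16.1, 21.9, 13.7 and 20.9, lower on soft than on stiff gel in both populations. Its log2 ratio of soft to stiff was -0.44 in ancestral and -0.61 in selected cells, where the median over all genes was also below 0, at -0.24 and -0.14. Against ancestral cells the list's median log2 ratio was -0.05 on soft gel and -0.03 on stiff gel, where members had 0.35 and 0.18. CCNE1, which encodes cyclin E1, had 3.02, 4.95, 1.78 and 4.43.

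Of 16 replication-independent and variant histones, 15 were found, since H2AW had no row under that symbol. A peak in all 4 lists was found at 7, among them H3-3A (9.50, 10.2, 7.78 and 9.91) and H2AZ1 (12.1, 14.5, 11.9 and 13.6). The testis genes H3-4, H3-5 and H1-7 had no peak in any list, and the oocyte linker histone H1-8 had weak peaks in 2 lists. H3-3B, H2AX and H1-10 were undetermined in 1 or 2 lists each. H3-3B had 16.3, 5.56 and 4.84 in the lists other than selected soft. That gene lies at a skipped number in at least 1 list, and whether its 3 values come from the same peak was not tested. The list's median log2 ratio of selected to ancestral was 0.05 on soft gel and -0.07 on stiff gel, over 8 genes with a peak in both lists.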

How the data were processed

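The submitters' processing notes name the GRCh38 build and these tools: MACS2 2.2.7.1, Bowtie2 2.4.5, Trimmomatic 0.36, and, for read quality, FastQC 0.11.4 with MultiQC 1.1. The authors deposited 1 peak table per group of 4 samples. Neither the depth per sample, nor how libraries were combined, nor where reads with several matches went is stated in the sources used. Per the file headers, each peak has a pileup signal at its summit, a whole number in the deposited values with no scaling for depth. The fold enrichment of the deposited tables is a ratio to a background of 1 value per list, and the deposited −log10 q-value, but not the −log10 p-value, served as a threshold.

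Gene positions came from RefSeq for GRCh38.p14. Python 3.11.15 with pandas 2.3.3, numpy 2.4.6 and scipy 1.17.1 took the highest pileup within 1 kb of each gene over the list median, and exact conditional binomial 95% intervals for ratios of 2 pileups. Gene starts came from the promoter table, which matched 64 members. The assignment of peaks to genes and the location of skipped numbers were tested on the ancestral soft list with changes planted in it. All 200 genes planted without a peak, 200 genes planted at 2-fold and 1096 removed widest peaks were recovered. The intervals and the motif search were not tested in this way. The members, gene lists, tests and naming rule were chosen with earlier results of these data known. Named were members without a peak in at least 1 list, the 5 highest and 5 lowest by level, the 5 most extreme ratios in each direction per comparison, members outside 6p22, the testis genes H1-6, H2AC1 and H2BC1, and of the other lists the genes without a peak in a list with NPAT, SLBP, HINFP, H3-3A, H3-3B and H2AZ1. A further gene of this rule is not reported here. CCNE1 and the other names outside this rule were chosen after their values were seen.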

Additional observations from a re-analysis of the deposited data

How the results depend on the processing

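Counts of members with a peak stayed within 1.5 times the values given under a distance of 0 or 3 kb, a −log10 q-value of at least 10, lists cut to the 74622 peaks of highest q, and, chosen after seeing the data, 1 kb from the gene start. Outside the 2 clusters, 3 members had a peak in each ancestral list at 3 kb, and 1 in the selected soft list at 1 kb from the start. Members with a peak in the ancestral list only on soft gel were 1 at 3 kb and 2 at the stricter q and at equal list length. On stiff gel they were 2 at 3 kb and 0 under both thresholds, which also left 0 in selected cells on soft gel only. Equal lists gave 2 in ancestral cells on soft gel only. Without members at skipped numbers, selected-only members were 1 on soft and 2 on stiff gel, and 1 member was on stiff gel only in selected cells.

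The median log2 ratio of selected to ancestral turned to -0.51 on soft and -0.42 on stiff gel with fold enrichment and was 0.46 and 0.32 on the scale of genes with a peak in all lists. Soft to stiff was -0.35 in selected cells with fold enrichment, and -0.01 in ancestral and 0.13 in selected cells on the other scale. Both scales divide all genes of a list alike, so members' distances from the all-gene median cannot move with them. Past 1.5-fold on soft gel, 1 member was higher and 16 lower in selected cells with fold enrichment (12 lower on stiff gel), and 8 were higher on the other scale, where 1 was higher on soft than on stiff gel in selected cells. At 2-fold 1 was higher on soft gel. With each peak counted once, or without members at skipped numbers (added after seeing the data), 1 was higher on soft and 0 on stiff gel.

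No paired analysis was possible because the samples of a group share 1 peak list, which also prevented leaving out a replicate. Absence of a peak is not absence of reads, since the lists hold only what passed the caller's threshold.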
